A study of Homo sapiens with 18 samples.

Results

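The 10 genes described here encode HP1 proteins and the enzymes and cofactors of histone H3 lysine 9 (H3K9) methylation. They are CBX1, CBX3, CBX5, TRIM28, SETDB1, ATF7IP, EHMT1, EHMT2, SUV39H1 and SUV39H2. They were chosen by symbol, with earlier results of these data known, and all 10 were found among the 16472 Ensembl gene IDs of the deposited expression table. All 10 also passed the filter on low values, which kept 13280 genes for testing (3 or more libraries with an RPKM of 1 or higher). RPKM is a level from read numbers corrected for gene length and library size.

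Methylated H3K9 marks repressed chromatin, and HP1 proteins read the mark through their chromodomain. CBX5 encodes HP1 alpha, CBX1 HP1 beta and CBX3 HP1 gamma. TRIM28 (KAP1) is the corepressor that KRAB zinc finger proteins bring to DNA, and it recruits both HP1 and the methyltransferase SETDB1, whose partner protein is ATF7IP. EHMT1 and EHMT2 form the complex that places mono- and dimethyl H3K9 in euchromatin, and SUV39H1 and SUV39H2 place the trimethyl mark at pericentromeric repeats. SP100, a resident of PML nuclear bodies, is an interferon-stimulated gene whose protein binds HP1.

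RNA was sequenced from NIKS cells, a human keratinocyte line that is immortal but otherwise close to normal. The 6 groups were WT and SP100 KO cells, each untreated (0 h) or held for 12 or 48 h in interferon alpha 2a (human, 25 ng/mL), with 3 biological replicates in each group and 18 libraries in all. All groups shared the NIKS background and growth over a layer of irradiated mouse J2/3T3 fibroblasts. The deposited column names give 1 line per genotype, so what belongs to the SP100 genotype and what belongs to the line cannot be told apart. The untreated libraries were all labelled 0 h, so the effect of interferon and that of the hours in culture cannot be told apart. These are bulk values, in which fewer cells of a type and less RNA per cell cannot be told apart.

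Read totals are not in the table. Relative depth, recovered from the low values, ran from 0.839 to 1.277 of the mean, and Pearson correlations between replicate libraries, taken across genes, were 0.985 to 0.989. SP100, the targeted gene, was at 27.9 to 31.9 RPKM in untreated WT and at 14.2 to 16.0 RPKM in untreated KO libraries. After 12 h the ranges were 150.8 to 172.1 and 86.5 to 93.2 RPKM, and after 48 h 123.7 to 131.2 and 57.4 to 62.4 RPKM, so SP100 RNA was lower in every KO library than in every WT library of the same time but was not absent. Of 8 interferon response genes used as a check, all 8 were higher in each of the 4 comparisons with untreated cells (limma, threshold 0.05). The basal keratinocyte keratins KRT5 (6494 to 8585 RPKM) and KRT14 (5587 to 6840 RPKM) were high in all libraries. Of 12 fibroblast markers, COL1A2, COL3A1, DCN, LUM, PDGFRA and THY1 were not analysed here, and COL1A1 did not exceed 3.14 RPKM. VIM (187 to 388 RPKM) and FN1 (219 to 424 RPKM), also on that list, were high in all libraries.

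CBX5 and ATF7IP fell in interferon, as described below, and their promoters are shown here for that reason, beside 2 strongly induced genes. The RefSeq promoter windows (GRCh38.p14, from 250 bases before to 50 bases after each start) gave 18 windows for 9 of the 10 genes, and none was used for TRIM28. Both strands were searched for the core of the interferon-stimulated response element, written as GAAA, any 2 bases, then GAAA. It was found in 5 of the 18 windows, which belong to CBX5 and ATF7IP, 2 of the 9 genes. These 2 genes have the most windows of the 9, and the CBX5 windows with a match overlap and share the same site. The core is in 3.57% of all 35116 windows and in at least 1 window of 4.38% of the 27305 genes with a window. Whether the 9 genes depart from these shares was not tested. Stretches of 30 bases around the matches are given 5′ to 3′ along the strand of the gene, with the match in capitals. A match on the opposite strand reads TTTC, any 2 bases, TTTC.
CBX5, chr12:54259704-54259733, minus strand: agtcttcactGAAAAGGAAAgttaagcctt
ATF7IP, chr12:14385103-14385132, plus strand: tgccttctgtTTTCTTTTTCtgtgtcctgt
ATF7IP, chr12:14408476-14408505, plus strand: gtaaattgtaTTTCAGTTTCtgttgctgtg
ATF7IP, chr12:14416679-14416708, plus strand: attcctaatgTTTCCATTTCattgttcacc
ISG15, chr1:1013374-1013403, plus strand: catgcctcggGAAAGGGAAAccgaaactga
IFIT1, chr10:89392497-89392526, plus strand: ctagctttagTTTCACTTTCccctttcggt

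The CBX5 match begins at -178 and -137 bases relative to 2 of its 3 listed starts. The third CBX5 start lies farther upstream, and its window holds no match on either strand. That window is printed whole, since it belongs to the most upstream of the 3 starts.
CBX5, chr12:54280073-54280372, minus strand: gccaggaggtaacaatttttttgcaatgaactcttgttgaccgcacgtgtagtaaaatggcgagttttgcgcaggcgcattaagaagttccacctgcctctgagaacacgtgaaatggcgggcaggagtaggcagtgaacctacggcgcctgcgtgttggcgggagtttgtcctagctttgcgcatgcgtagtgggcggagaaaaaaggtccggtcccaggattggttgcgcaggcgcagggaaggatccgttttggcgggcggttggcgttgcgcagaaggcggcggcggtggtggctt
Values per gene do not tell which start was in use, and a match of these letters is not a measured binding site. Of 7 induced genes with windows that served as a reference (SP100 was counted apart), 5 held a match. The SP100 windows held none. For ATF7IP, the most upstream window also held no match.

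In untreated WT cells the 10 genes spanned a wide range of RPKM levels, which are per length and so can be set side by side. TRIM28 was highest at 356 ± 14.1 RPKM (SD, n = 3 here and throughout), above 98.0% of the genes tested. CBX3 followed at 198 ± 7.40 RPKM, CBX1 at 60.1 ± 4.87 RPKM and CBX5 at 46.6 ± 1.03 RPKM. HP1 gamma RNA was thus 3.30-fold above HP1 beta RNA, the next of the family.

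The methyltransferases and ATF7IP were lower. EHMT1 was at 25.5 ± 2.80 RPKM, EHMT2 at 19.9 ± 0.886 RPKM and SETDB1 at 14.6 ± 1.15 RPKM. SUV39H2 was at 13.1 ± 0.497 RPKM, ATF7IP at 11.9 ± 0.361 RPKM and SUV39H1 at 9.86 ± 0.135 RPKM, near the middle of the genes tested. Among neighbours in this order, only SETDB1 and SUV39H2 had libraries that overlapped. TRIM28 RNA was 24.5 ± 2.72 times that of its methyltransferase partner SETDB1 in RPKM.

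**Figure D1:**
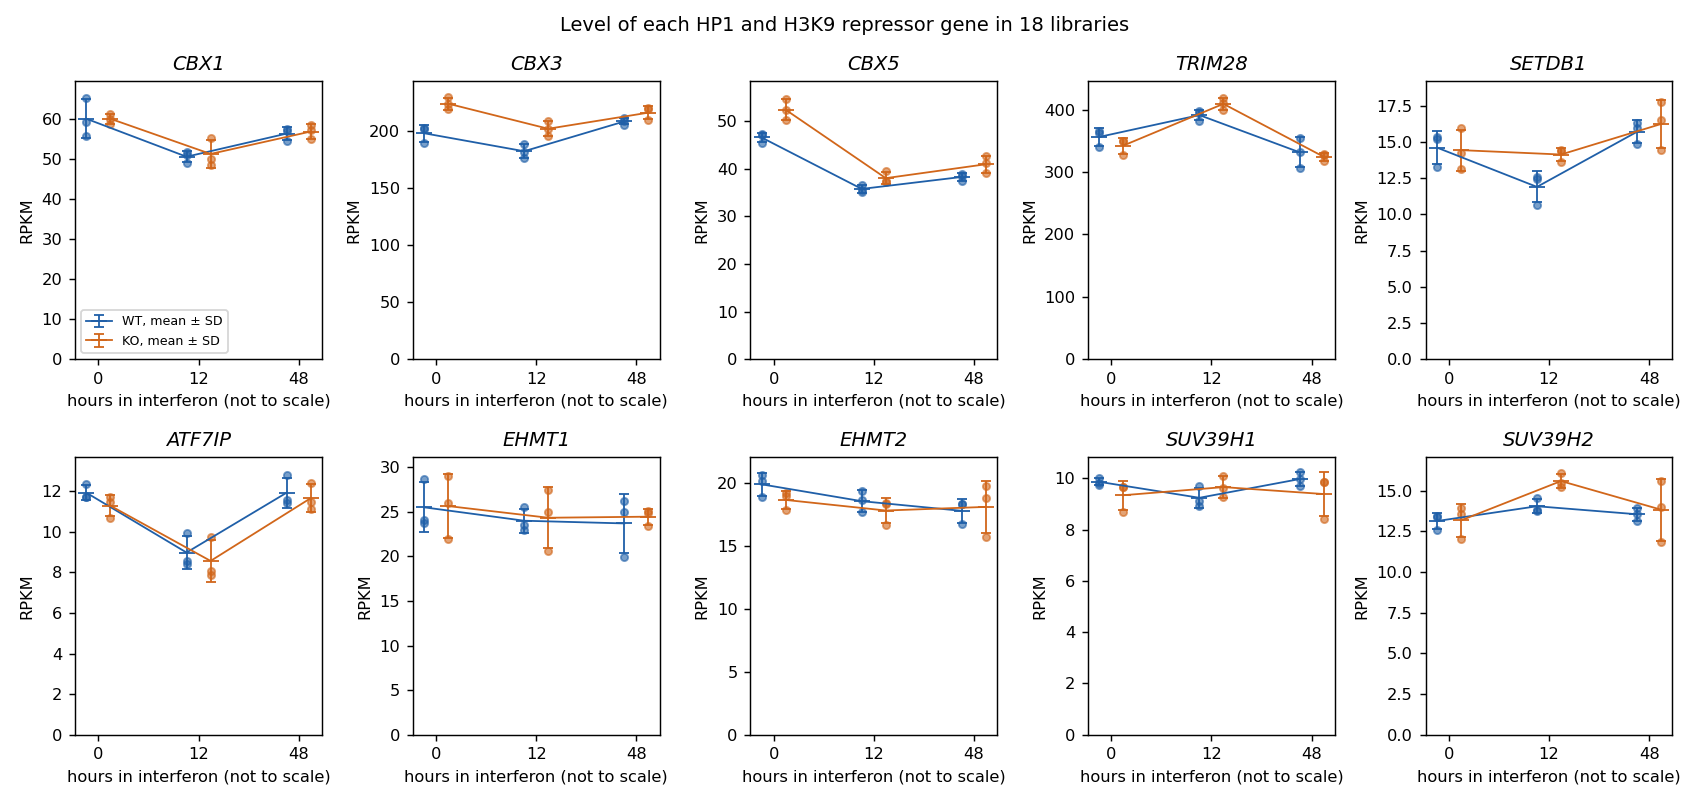
Level in RPKM (vertical axes, each from 0) of each of the 10 genes at 0, 12 and 48 h in interferon (horizontal axes, times evenly spaced and not to scale), in WT and SP100 KO cells. Points are libraries, and bars are the mean ± SD of 3; CBX5 and ATF7IP are lower at 12 h than at 0 h in every library of both genotypes, and TRIM28 is higher.

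At 12 h in interferon, CBX5 and ATF7IP fell and TRIM28 rose in both genotypes. CBX5 dropped to 76.8% of its untreated level in WT and 72.6% in KO, ATF7IP to 75.3% and 75.9%, and TRIM28 reached 109.8% and 119.6%. CBX1 and CBX3 were also called lower in both genotypes. SETDB1 was called lower in WT and SUV39H2 higher in KO, while EHMT1, EHMT2 and SUV39H1 were not called. No gene of the 10 changed by 2-fold in any comparison.

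These calls stand against a broad response. In limma, 1 of the 10 genes was called higher and 5 lower in WT at 12 h, where 15.1% of all genes tested were called higher and 29.8% lower. In KO, 2 were called higher and 4 lower, against 16% and 32.8% of all genes. The median change of the 10 genes on the log2(RPKM + 1) scale was -0.11 in WT and -0.07 in KO, and that of all genes was -0.09 in both. Log2 changes below are on this scale, on which genes of low level appear to change less than they do.

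The downward centre of all genes depended on scaling. Median-of-ratios scaling, which centres each library on its typical gene, moved the 12 h libraries up, removing a shift of -0.09 for WT and -0.10 for KO. With it, 21.8% of genes were called higher and 20.5% lower in WT, and 23.7% and 22.9% in KO. Of the 10 genes, the calls were then 1 higher and 3 lower for WT, and 2 higher and 2 lower for KO. CBX5 and ATF7IP were called lower and TRIM28 higher in both genotypes under both scalings.

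CBX5, which encodes HP1 alpha, was at 45.5, 47.1 and 47.4 RPKM in untreated WT libraries and at 35.1, 36.6 and 35.7 RPKM after 12 h. In KO it went from 52.4, 54.7 and 50.3 RPKM to 37.2, 39.5 and 37.6 RPKM. Treated and untreated libraries did not overlap in either genotype. The log2 change was -0.37 in WT (SE 0.0422, limma adjusted p of 3.85e-06) and -0.45 in KO (adjusted p of 3.78e-07). Relative to the typical gene, with median-of-ratios scaling, it was -0.28 and -0.35 (limma adjusted p of 7.88e-05 and 7.44e-06).

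ATF7IP, the partner of SETDB1, was at 12.4, 11.7 and 11.7 RPKM in untreated WT and 8.43, 8.58 and 9.94 RPKM at 12 h. In KO the untreated libraries held 11.5, 10.7 and 11.7 RPKM and the 12 h libraries 8.08, 9.77 and 7.86 RPKM. Again the treated libraries were below all untreated ones. The log2 change was -0.38 in WT (SE 0.0787) and -0.37 in KO, with limma adjusted p of 0.0011 and 0.00121. With median-of-ratios scaling the changes were -0.29 and -0.27 (limma adjusted p of 0.00591 and 0.00873).

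SETDB1, the enzyme that trimethylates H3K9 where TRIM28 recruits it, was at 15.2, 13.3 and 15.3 RPKM in untreated WT and at 10.7, 12.4 and 12.6 RPKM after 12 h. The WT groups did not overlap, and the log2 change was -0.28 (SE 0.0856, limma adjusted p of 0.0153). It was -0.19 with median-of-ratios scaling (limma adjusted p of 0.0904), and the call was also lost without WT 0 h replicate 1 or 3 or WT 12 h replicate 1, with a highest adjusted p of 0.0904 over these settings in limma. In KO, SETDB1 went from 14.2, 15.9 and 13.1 RPKM to 13.6, 14.4 and 14.4 RPKM. Those libraries overlapped, and the change of -0.03 was not called (limma adjusted p of 0.836).

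SETDB1 overlaps CERS2 on the opposite strand. The libraries were stranded, but how reads were assigned to strands is not given in the sources used here. CERS2 was at 90.95 to 117.7 RPKM, and its change at 12 h was 0.08 in WT and 0.04 in KO, neither called (limma adjusted p of 0.162 and 0.416).

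TRIM28 was at 340.0, 366.2 and 362.2 RPKM in untreated WT and rose to 394.3, 382.1 and 397.2 RPKM at 12 h. In KO it went from 350.4, 327.3 and 349.0 RPKM to 398.8, 418.1 and 410.8 RPKM. All 6 treated libraries were above all 6 untreated ones. The log2 change was 0.14 in WT (SE 0.0463, limma adjusted p of 0.0258) and 0.26 in KO (adjusted p of 0.00027). Without WT 0 h replicate 1, WT 12 h replicate 1 or WT 12 h replicate 3 the WT call was lost, with limma adjusted p of up to 0.121. With median-of-ratios scaling the changes were larger, at 0.23 and 0.37 (limma adjusted p of 0.00133 and 1.9e-05).

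CBX1, which encodes HP1 beta, was at 55.7, 59.3 and 65.3 RPKM in untreated WT and 49.1, 51.0 and 51.7 RPKM at 12 h. In KO it went from 60.1, 61.4 and 58.8 RPKM to 55.4, 48.5 and 50.04 RPKM. Groups did not overlap, with log2 changes of -0.24 in WT and -0.23 in KO (limma adjusted p of 0.00234 and 0.00326). With median-of-ratios scaling they were -0.15 and -0.12, and only the WT change stayed past the threshold (limma adjusted p of 0.0475 and 0.0938).

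CBX3, which encodes HP1 gamma, was at 202.8, 189.7 and 202.2 RPKM in untreated WT and 181.8, 189.0 and 176.4 RPKM at 12 h. In KO the values were 219.2, 229.7 and 223.7 RPKM against 208.9, 201.7 and 195.8 RPKM. The log2 changes of -0.12 and -0.15 were called (limma adjusted p of 0.0154 and 0.00343) but were close to the median of all genes. With median-of-ratios scaling they were -0.02 and -0.04 and not called in either genotype (limma adjusted p of 0.637 and 0.373). In WT the call was also lost when the libraries of the comparison were fitted alone, and without WT 0 h replicate 1, WT 0 h replicate 3 or WT 12 h replicate 3.

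SUV39H2, which trimethylates pericentromeric H3K9, was at 13.9, 13.5 and 12.0 RPKM in the untreated KO libraries. After 12 h they held 16.1, 15.2 and 15.5 RPKM. That rise of 0.23 was called (SE 0.0761, limma adjusted p of 0.0202), but not without KO 0 h replicate 3 or KO 12 h replicate 1, where the limma adjusted p reached 0.1. In WT, SUV39H2 went from 13.4, 13.4 and 12.6 RPKM to 13.8, 14.5 and 13.8 RPKM. The WT groups did not overlap either, and the change of 0.09 was not called (limma adjusted p of 0.36). With median-of-ratios scaling the changes were 0.33 in KO and 0.18 in WT, and only the KO change was called (limma adjusted p of 0.00196 and 0.066).

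SUV39H2 overlaps DCLRE1C on the opposite strand, and DCLRE1C rose at 12 h by 0.78 in WT and 0.77 in KO (limma adjusted p of 6.78e-06 and 6.2e-06). DCLRE1C was at 3.26 to 7.67 RPKM over all libraries. Its part in the SUV39H2 values was not tested.

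SUV39H1, the paralog of SUV39H2, stayed between 8.41 and 10.2 RPKM in all 18 libraries. EHMT1 lay between 19.9 and 29.04 RPKM and EHMT2 between 15.7 and 20.6 RPKM. Their group means differed by at most 1.08-fold, 1.08-fold and 1.12-fold, respectively. At 12 h the change of EHMT1 was -0.08 in WT (95% interval -0.33 to 0.17) and -0.07 in KO (-0.32 to 0.18), so these data do not exclude a change of the size seen for CBX1. For EHMT2 it was -0.10 (-0.25 to 0.06) and -0.06 (-0.22 to 0.09). For SUV39H1 it was -0.09 (-0.22 to 0.05) and 0.04 (-0.09 to 0.18). The WT groups of SUV39H1 did not overlap, without a call (limma adjusted p of 0.293).

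**Figure D2:**
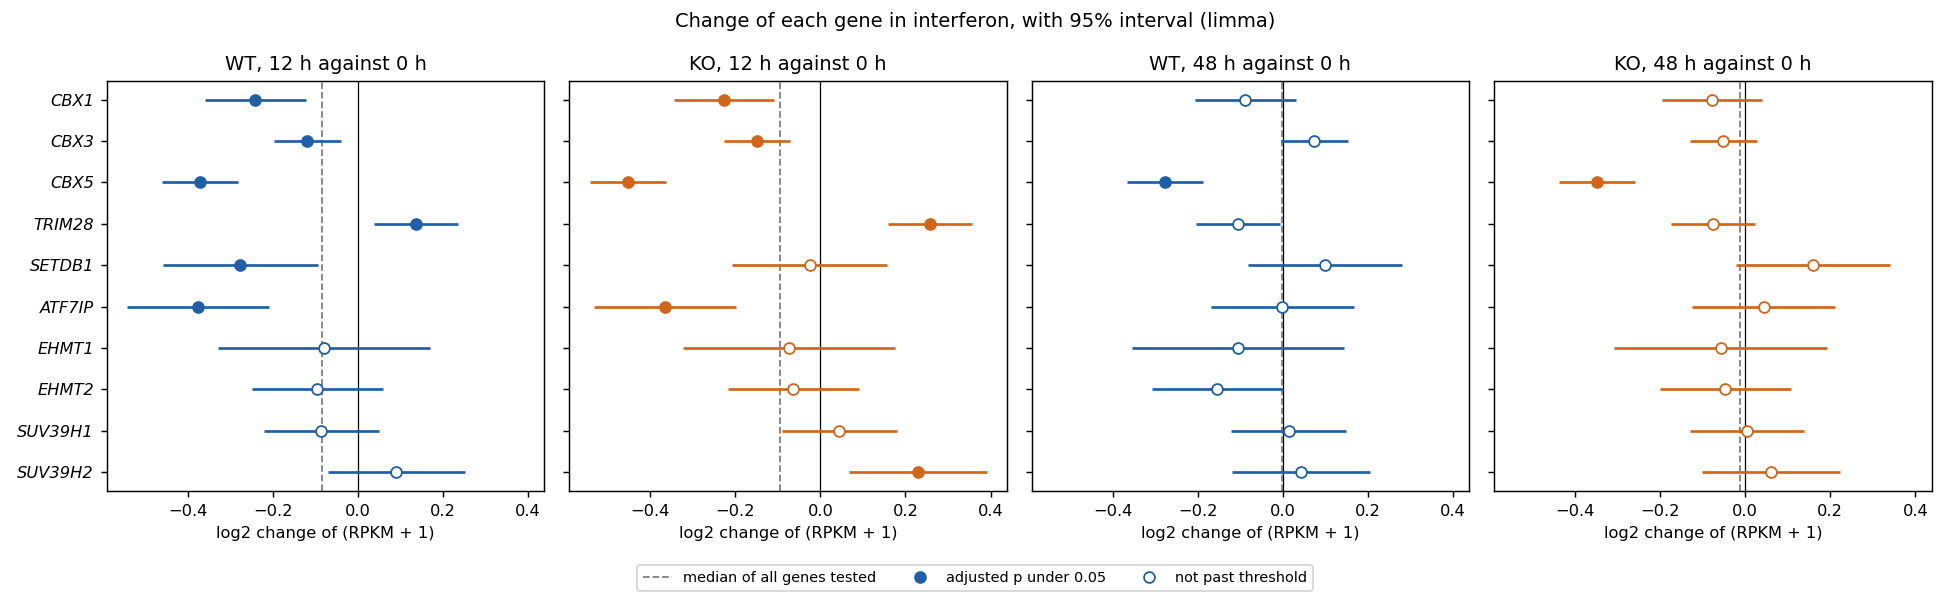
Log2 change of (RPKM + 1) in interferon against untreated cells (horizontal axes) for each gene (vertical axis), at 12 and 48 h in WT and SP100 KO, with 95% limma intervals. Filled points passed an adjusted p of 0.05; the dashed line is the median of all genes tested, which at 12 h lies at -0.09 in both genotypes. CBX5 is the only filled point at 48 h.

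Other markers also differed at 12 h, beside a broad response of all genes tested. For WT, limma called 15.1% of all genes higher and 29.8% lower, against 16% and 32.8% for KO. Median-of-ratios scaling gave 21.8% and 20.5% for WT, against 23.7% and 22.9% for KO. Whether any marker list departs from these shares was not tested. The summed level of 8 differentiated keratinocyte markers was 155.6 to 175.3 RPKM in untreated WT and 194.1 to 204.7 RPKM at 12 h, and 133.3 to 153.3 and 163.9 to 210.4 RPKM in KO. SPRR1B was the largest part of it, with means of 100.5 and 125.5 RPKM in WT and 82.4 and 112.6 RPKM in KO. In each genotype limma called 5 of the 8 higher and 1 lower. The lower one was KRT10, at -0.27 in WT and -0.35 in KO. With median-of-ratios scaling 5 were again higher in each genotype. KRT10 then passed in KO only (limma adjusted p of 0.0604 in WT and 0.0122 in KO). Of 20 proliferation genes, limma called 4 higher and 8 lower for WT, and 8 higher and 7 lower for KO. Median-of-ratios scaling gave 7 higher and 2 lower for WT, and 10 higher and 4 lower for KO. Of 10 basal keratinocyte markers, limma called 4 higher and 2 lower for WT, and 5 higher and 2 lower for KO. With median-of-ratios scaling each genotype had 5 higher and 1 lower. The log2 change of KRT15, a basal keratin, was -1.06 (WT) and -0.91 (KO), while that of the laminin gene LAMA3 was 0.63 (WT) and 0.71 (KO). Of 4 fibroblast markers tested, VIM and FN1 were called lower, at -0.29 and -0.34 in WT and -0.17 and -0.19 in KO. Neither KO change passed with median-of-ratios scaling (limma adjusted p of 0.201 and 0.365). In KO, COL1A1 was called higher, at 0.53, and FAP lower, at -0.33 (limma adjusted p of 0.00421 and 0.0465). Of these 2, only COL1A1 passed with median-of-ratios scaling (limma adjusted p of 0.00165 and 0.142). The part of these markers in the changes of the 10 genes was not tested.

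At 48 h, CBX5 was the only gene of the 10 that was called against untreated cells, and it was lower in both genotypes. It was at 39.0, 37.5 and 38.5 RPKM in WT and 42.7, 39.1 and 41.3 RPKM in KO, or 82.2% and 78.1% of the untreated means. All treated libraries of a genotype were below all of its untreated ones. The log2 change was -0.28 in WT and -0.35 in KO (limma adjusted p of 0.000281 and 2.48e-05). CBX5 kept both calls, and both calls at 12 h, in all 13 alternatives tried for each.

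At 48 h, 6.52% of all genes were called higher and 6.3% lower in WT, and 5.9% and 7.42% in KO. The median of the 10 genes was -0.04 in WT and -0.05 in KO, with all genes at 0.00 and -0.01. TRIM28 at 48 h had a change of -0.10 in WT (limma adjusted p of 0.157), which passed only without WT 48 h replicate 1, where it was -0.16 (limma adjusted p of 0.0362). In KO its change was -0.08 (limma adjusted p of 0.32). Besides CBX5, groups did not overlap for CBX3 and EHMT2 in WT, at 0.07 and -0.15 (limma adjusted p of 0.214 and 0.183). The same held for CBX1 in KO, at -0.08 (limma adjusted p of 0.413).

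Between 12 and 48 h, ATF7IP rose and TRIM28 fell in both genotypes, and SETDB1 rose in WT. ATF7IP returned to 11.4, 11.6 and 12.8 RPKM in WT and 11.5, 11.1 and 12.4 RPKM in KO, above all 12 h libraries. Its log2 change was 0.38 in WT and 0.41 in KO (limma adjusted p of 0.00157 and 0.000658). At 48 h ATF7IP was at 100.0% and 103.3% of the untreated means.

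SETDB1 at 48 h was at 16.0, 14.8 and 16.3 RPKM in WT, above all WT libraries of 12 h, with a change of 0.38 (SE 0.0856, limma adjusted p of 0.00284). In KO it was at 14.4, 16.6 and 17.8 RPKM, and the change of 0.18 was not called (limma adjusted p of 0.0976). Without KO 48 h replicate 1, the lowest of these, the KO change was 0.26 and called (limma adjusted p of 0.0293).

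TRIM28 at 48 h was at 355.3, 332.5 and 306.9 RPKM in WT and 329.0, 326.9 and 317.4 RPKM in KO, below every 12 h library. The log2 change from 12 h was -0.24 in WT and -0.33 in KO (limma adjusted p of 0.000821 and 3.65e-05). TRIM28 thus stood highest at 12 h in both genotypes, while ATF7IP stood lowest there.

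CBX3 rose between 12 and 48 h by 0.19 in WT and 0.10 in KO (limma adjusted p of 0.000774 and 0.0451), and CBX1 by 0.15 in each (limma adjusted p of 0.0422 and 0.0425). The CBX3 change in WT held in all 13 alternatives, at 0.11 with median-of-ratios scaling (limma adjusted p of 0.0345). The CBX3 call in KO was lost in 9 of 13 alternatives, with limma adjusted p of up to 0.928, and each CBX1 call in 8 of 13. Both CBX3 in KO and CBX1 in both genotypes were among the calls lost with median-of-ratios scaling.

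Over this interval 4 of the 10 genes were called higher and 1 lower in WT, against 24.6% and 11.3% of all genes tested. In KO the counts were 3 and 1, against 27.7% and 14%. With median-of-ratios scaling 3 were called higher and 1 lower in WT, against 16.1% and 18.2% of all genes. In KO, 1 was then higher and 2 were lower, against 19.1% and 21.1%. The gene added on the lower side was SUV39H2 in KO, at -0.26 (limma adjusted p of 0.0127).

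Ratios between the genes within a library do not change with any scaling of that library, and they were added after the values were seen. CBX5 made up 15.3 ± 0.523% of the summed HP1 RPKM (CBX1, CBX3 and CBX5) in untreated WT libraries, 13.3 ± 0.180% after 12 h and 12.6 ± 0.236% after 48 h. In KO the shares were 15.6 ± 0.406%, 13.1 ± 0.669% and 13.0 ± 0.306%. Every treated library, at 12.3% to 13.6%, was below every untreated one, at 15.0% to 15.9%.

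The CBX3 share went from 65.0 ± 1.49% in untreated WT libraries to 67.8 ± 0.854% after 12 h and 68.8 ± 0.770% after 48 h. In KO its values were 66.6 ± 0.584%, 69.3 ± 0.269% and 68.8 ± 0.637%. Within each genotype all treated libraries were above all untreated ones. The CBX1 share stayed between 16.7% and 20.8% in all libraries.

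TRIM28 over CBX5 went from 7.64 ± 0.151 in untreated WT libraries to 10.9 ± 0.436 after 12 h and 8.65 ± 0.605 after 48 h. The KO ratios were 6.54 ± 0.498, 10.8 ± 0.177 and 7.92 ± 0.388. TRIM28 over SETDB1 was 24.5 ± 2.72, 33.1 ± 3.40 and 21.2 ± 2.03 in WT, and 23.9 ± 3.08, 28.96 ± 0.449 and 20.1 ± 2.49 in KO. Libraries at 12 h were above those at 0 and 48 h in both ratios and both genotypes. ATF7IP over SETDB1 was 0.819 ± 0.0588 in untreated WT and 0.757 ± 0.0575 at 12 h with overlapping libraries, and in KO 0.789 ± 0.110 and 0.606 ± 0.0681, also with overlap.

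**Figure D3:**
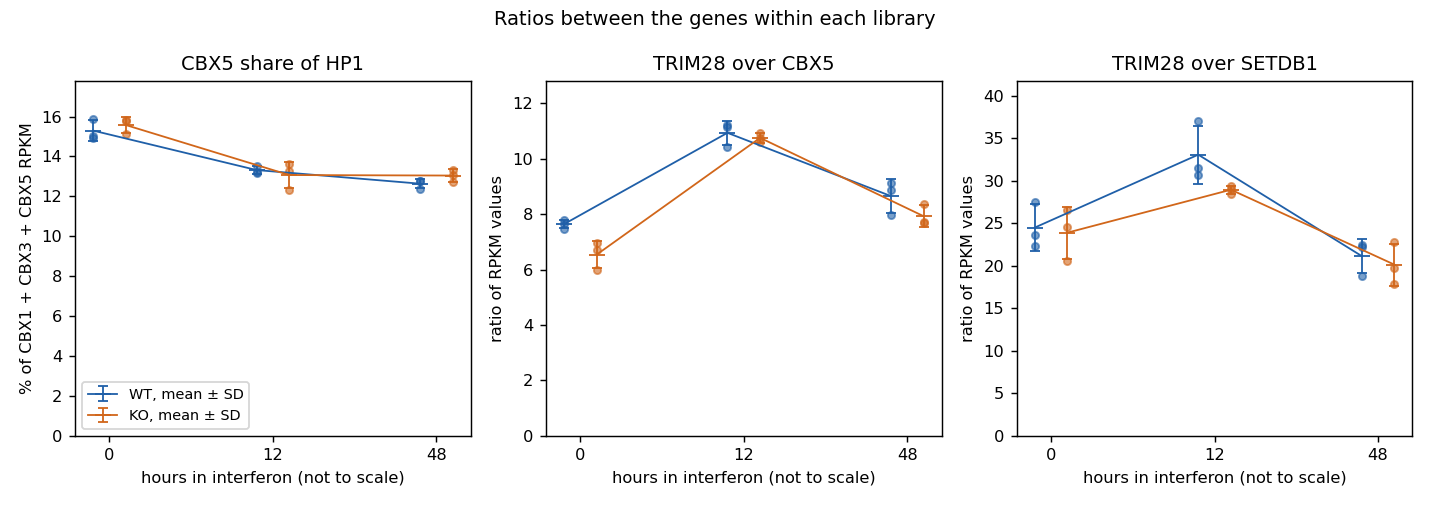
Ratios between the genes within each library (vertical axes, from 0) at 0, 12 and 48 h in interferon (horizontal axes, not to scale): the CBX5 share of summed HP1 RPKM in percent, TRIM28 over CBX5, and TRIM28 over SETDB1. Points are libraries and bars the mean ± SD of 3; the CBX5 share lies at 15.0% to 15.9% in untreated and 12.3% to 13.6% in treated libraries.

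In SP100 KO cells, CBX3 and CBX5 were higher than in WT in untreated cells, and the other 8 genes were not called. Untreated CBX3 was at 219.2 to 229.7 RPKM in KO and 189.7 to 202.8 RPKM in WT, a log2 change of 0.18 (SE 0.0369, limma adjusted p of 0.00945). Untreated CBX5 was at 50.3 to 54.7 RPKM in KO and 45.5 to 47.4 RPKM in WT, a change of 0.17 (SE 0.0422, limma adjusted p of 0.0317). Groups did not overlap for either gene. The same held for ATF7IP and SUV39H1, both lower in KO by 0.07 and not called (limma adjusted p of 0.687 and 0.603). How many of all genes had groups without overlap was not counted. At 0 h, 4.89% of all genes tested were called in either direction.

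Both calls depended on single libraries. The CBX3 call was lost when the untreated libraries were fitted alone, and without WT 0 h replicate 2 or KO 0 h replicate 2, with limma adjusted p of up to 0.0749. The CBX5 call was lost in 8 of 13 alternatives, among them median-of-ratios scaling (limma adjusted p of 0.0672), and without WT 0 h replicate 1, 2 or 3 or KO 0 h replicate 1 or 2.

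At 12 h CBX3 was at 195.8 to 208.9 RPKM in KO and 176.4 to 189.0 RPKM in WT, a change of 0.15 that was called (limma adjusted p of 0.0354). That call was lost in 7 of 13 alternatives, among them the fits without WT 12 h replicate 1 or 3 or KO 12 h replicate 1 or 2. At this time 3.62% of all genes were called. CBX5 was higher by 0.09 without passing (limma adjusted p of 0.318), although its groups did not overlap.

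SETDB1 at 12 h also had groups that did not overlap, at 13.6 to 14.4 RPKM in KO and 10.7 to 12.6 RPKM in WT. Its change of 0.23 was the largest of the 10 at that time and was not called (SE 0.0856, limma adjusted p of 0.166). Groups of TRIM28 and SUV39H2 did not overlap either, at 0.06 and 0.14, without a call (limma adjusted p of 0.529 and 0.372). In all, 5 of the 10 genes had groups without overlap at 12 h, and the share over all genes was not counted. The difference between genotypes in the 12 h response of SETDB1 was 0.25 (95% interval -0.01 to 0.51), with a limma adjusted p of 0.866.

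At 48 h none of the 10 genes was called between genotypes in limma (1, CBX5, at an unadjusted p under 0.05, against 2173 of 13280 genes), where 4.19% of all genes were. CBX3 differed by 0.05 and CBX5 by 0.09 (limma adjusted p of 0.553 and 0.277). In the interaction of genotype and interferon, limma called none of the 10 at 12 h or at 48 h, against 0.0753% and 0.0828% of all genes. At an unadjusted p under 0.05 the counts were 0 and 1, against 764 and 826 of the 13280 genes tested. The latter was CBX3, at -0.13 (95% interval -0.24 to -0.01, limma adjusted p of 0.76).

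Averaged over the 3 times, a contrast added after the values were seen, CBX3 was higher in KO by 0.13 (SE 0.0213, limma adjusted p of 0.000719) and CBX5 by 0.12 (SE 0.0244, limma adjusted p of 0.00396). Both held with median-of-ratios scaling (limma adjusted p of 0.00176 and 0.0106). They also held without each single library, with limma adjusted p of 0.00057 to 0.00223 for CBX3 and 0.00213 to 0.0102 for CBX5. The other 8 genes were not called, and 15.6% of all genes were. CBX1, the third HP1 gene, differed by 0.01 (95% interval -0.06 to 0.08).

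The CBX3 difference went with a difference of its chromosome. CBX3 lies on chromosome 7, whose 597 tested genes had a median KO against WT change of 0.08 over the 3 times, the highest of 23 chromosomes. At 0, 12 and 48 h the chromosome 7 median was 0.10, 0.08 and 0.07, again the highest each time. Of these 597 genes, 159 were called higher and 24 lower in the average over times (limma).

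The 20 tested genes nearest to CBX3, 10 on each side, had a median of 0.13 in that average, against 0.13 for CBX3 itself. Of the 20, 17 were above 0 and 10 were called higher. HNRNPA2B1, which overlaps CBX3 on the opposite strand and was at 969.2 to 1150 RPKM, was higher by 0.07 (limma adjusted p of 0.0387). The part of this wider difference in the CBX3 values was not tested.

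CBX5 lies on chromosome 12, whose 687 tested genes had a median of 0.00 over the 3 times. The 20 tested genes nearest to CBX5 had a median of -0.06, and 6 of them were above 0.

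The lines also differed in genes shared with fibroblasts. The summed level of 6 fibroblast markers was 623.2 to 819.0 RPKM over WT libraries and 447.6 to 561.6 RPKM over KO libraries. VIM and FN1, which cultured keratinocytes also express, made up nearly all of it, and VIM was lower in KO at each time (-0.59, -0.46 and -0.57, limma adjusted p of 2.91e-08, 6.24e-07 and 4.95e-08). Its part in the genotype values of the 10 genes was not tested.

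**Figure D4:**
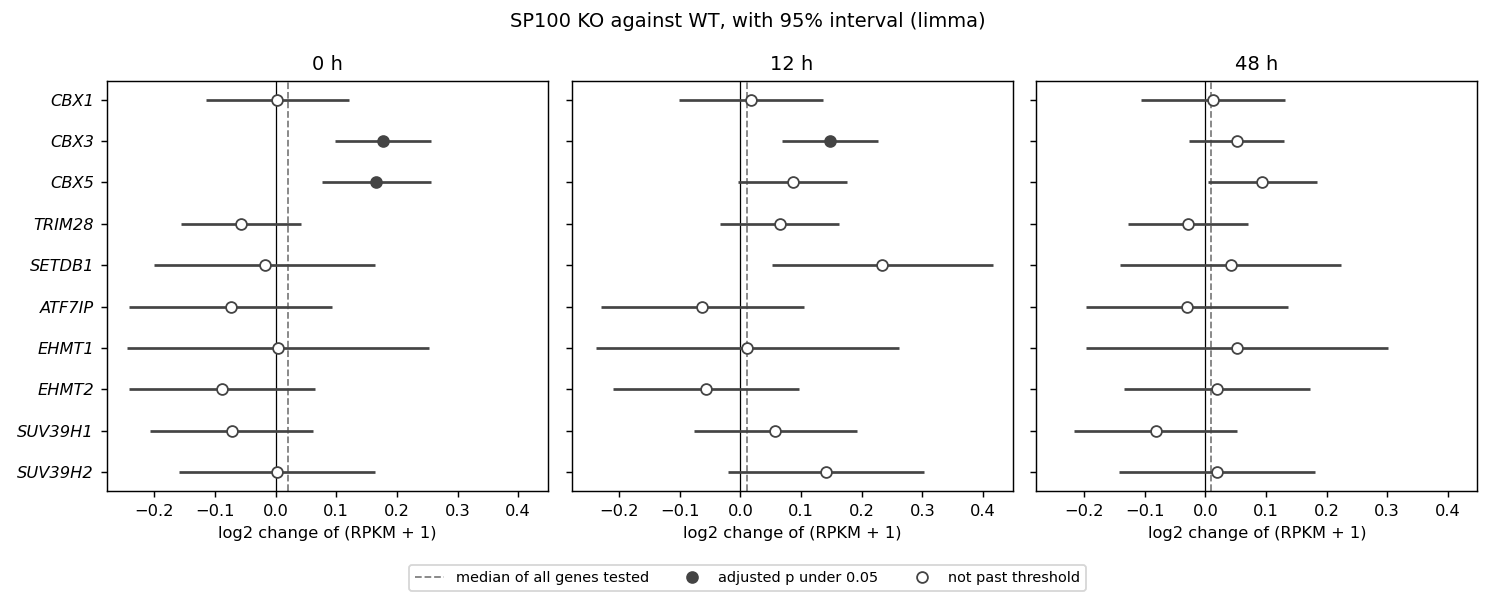
Log2 change of (RPKM + 1) in SP100 KO against WT (horizontal axes) for each gene (vertical axis) at 0, 12 and 48 h, with 95% limma intervals. Filled points passed an adjusted p of 0.05: CBX3 and CBX5 at 0 h and CBX3 at 12 h; the dashed line is the median of all genes tested.

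Other parts of the repressive machinery were examined as lists of known members, each counted in limma over all genes tested. Their median changes at 12 h lay between -0.12 (HUSH) and -0.01 (Polycomb) in WT and between -0.11 (demethylases) and 0.01 (Polycomb) in KO, where all genes had -0.09. Beside the list counts at 12 h, limma called 15.1% of all genes higher and 29.8% lower for WT, against 16% and 32.8% for KO. Whether any of these lists departs from such shares was not tested. In the HUSH complex, which recruits SETDB1 with MORC2, all 4 genes were tested. MORC2 rose at 12 h in WT (0.39, adjusted p of 6.34e-05) and KO (0.24, adjusted p of 0.00322). TASOR was called lower in WT (-0.21) and PPHLN1 in KO (-0.19), and neither of these 2 passed with median-of-ratios scaling.

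Of 8 other H3K9 methyltransferases and cofactors, 7 were tested. ATF7IP2, the paralog of ATF7IP, fell in WT at 12 h by 0.48 on the log2 scale, and was higher in KO than in WT at that time by 0.49 (limma adjusted p of 0.0021 and 0.017). WIZ, a partner of EHMT1 and EHMT2, rose in KO by 0.31 at 12 h and 0.32 at 48 h. These were the only calls of the list against untreated cells or between genotypes.

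Among 11 H3K9 demethylases, KDM3A rose at 12 h by 0.45 in WT and 0.48 in KO, while 4 genes of the list were called lower in WT and 3 in KO. KDM4C was the most changed of these, at -0.32 and -0.30, and did not pass with median-of-ratios scaling in either genotype. With that scaling, no gene of the list was called lower in WT and 1, JMJD1C, in KO. In KO against WT at 0 h, JMJD1C was higher by 0.24, a call lost with median-of-ratios scaling (limma adjusted p of 0.0396 and 0.064).

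Of 10 HP1 partners, the 12 h calls were 1 higher and 2 lower for WT, and 2 higher and 3 lower for KO. With median-of-ratios scaling they were 2 and 2, and 3 and 2. HP1BP3 fell by 0.51 and 0.41 on the log2 scale in WT and KO. TRIM24, a relative of TRIM28, fell by 0.45 in WT and 0.32 in KO, and CHAF1A, a chromatin assembly factor that binds HP1, rose by 0.40 in KO. At 48 h in WT, TRIM24 was still lower (-0.28) and LBR, the lamin B receptor, higher (0.17). LBR was also higher in KO than in WT at 0 h, by 0.21.

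Of 7 DNA methylation genes, 6 were tested, and DNMT1 rose in KO at 12 h by 0.26 and ZBTB33 in WT at 48 h by 0.22. Of 19 Polycomb genes, 17 were tested. At 12 h limma called 1 of them higher and 6 lower for WT, and 2 higher and 5 lower for KO. With median-of-ratios scaling the calls were 3 higher and 4 lower, and 5 higher and 3 lower. EZH1 fell by 0.52 and 0.56 on the log2 scale, and CBX6, a Polycomb relative of the HP1 genes that reads methylated H3K27, by 0.36 and 0.42.

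At 48 h CBX6 was higher than in untreated WT (0.28) and EZH1 lower (-0.26), and in KO JARID2 was lower (-0.19). Of these, EZH1 in WT did not pass with median-of-ratios scaling (limma adjusted p of 0.054). Between genotypes at 48 h, EZH1 was higher in KO (0.31) and CBX6 lower (-0.45).

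Among the 10 genes, the group means of CBX5, ATF7IP and SETDB1 spanned the widest ranges, 0.54, 0.44 and 0.42 on the log2 scale. For each, the tested genes with the most similar course over the 6 group means were found by the root mean square difference after centring. For CBX5 these were ADGRA3 (0.018), the RNA helicase gene DDX6 (0.024) and TRIM6 (0.027). DDX6 was at 46.8, 35.9 and 39.0 RPKM in WT at 0, 12 and 48 h, close to CBX5 in level as well.

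For ATF7IP, the 3 most similar included the gene ENSG00000258579 (0.019) and MTIF3 (0.023). ENSG00000258579 had group means of only 0.28 to 0.74 RPKM, a level at which this scale makes changes look smaller. For SETDB1 they were BCLAF3 (0.024), the phosphatase gene DUSP5 (0.033) and ANKRD49 (0.036). These differences are descriptions over 6 means of the same libraries.

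An antisense gene, SCAT2, overlaps CBX5 and was at no more than 0.43 RPKM in any library. The HP1 genes also have processed copies elsewhere in the genome. GENCODE release 29 names 5 pseudogenes for CBX1, 9 for CBX3 and 1 for CBX5. Of these, 2 CBX3 pseudogenes were in the table, at no more than 1.71 RPKM. How reads shared between a gene and its copies were assigned is not given in the sources used here, so the HP1 levels are uncertain to that extent.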

How the data were processed

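Expression was measured by stranded mRNA sequencing of NIKS cells, per the labels' protocols. The authors deposited 1 table of RPKM values for 16472 genes in 18 libraries, rounded to 2 decimals. The submitters' processing notes name cutadapt, STAR 2.6.1, RSEM 1.3.0, limma 3.50.3 and the build hg19, with no role or order. The annotation and gene filter are not given in the sources used here.

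RPKM values are not counts, so log2(RPKM + 1) was fitted with limma 3.58.1 (R 4.3.3), with all 18 libraries as 6 group means and a variance trend. In each of 11 comparisons the Benjamini-Hochberg adjustment covered the 13280 genes, with a threshold of 0.05. Replicates are biological per the labels. Their independence beyond that is not stated. The fit was tested on simulated data.

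Symbols matched 15666 IDs. Every gene of the 10 is named in each family of comparisons, and in each list the 2 called genes with the largest changes are named. The 10 genes and the lists were chosen with earlier results of these data known. Chromosome medians, nearest genes, ratios and the average over times were added after the values were seen.

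Alternatives were a pseudocount of 0.1, no filter, genes with a mean of 5 RPKM or more, median-of-ratios scaling, no variance trend, the replicate number as a block, only the libraries compared, and each library left out. The values of some single genes are not reported here.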

Additional observations from a re-analysis of the deposited data

How the results depend on the processing

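Over 110 changes (10 genes in 11 comparisons) and their alternatives, 1381 of 1550 values kept their direction and their side of the threshold. In 59 a call was lost, in 6 a call was gained, and in 104 a value called in neither setting changed sign. No called change was reversed. The number of the 10 genes called moved by over 1.5 times in 5 comparisons. For KO against WT at 0 h it was 2, with 1 under median-of-ratios scaling and 0 with only the libraries compared, and leaving out a library gave 0 to 2. For KO against WT at 12 h it was 1, with 0 without the variance trend and 0 with only the libraries compared, and leaving out a library gave 0 to 1. For 48 h against 12 h in KO it was 4, with 2 without the variance trend and 2 with only the libraries compared, and leaving out a library gave 2 (without KO 12 h replicate 3) to 4. For 12 h against 0 h in WT it was 6, and leaving out a library gave 3 (without WT 0 h replicate 1) to 6. For 48 h against 0 h in WT it was 1, and 2 without WT 48 h replicate 1. The cause of these changes was not tested.

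With the replicate number as a block, the count was 1 for KO against WT at 0 h, 0 at 12 h, and 2 for 48 h against 12 h in KO. It changed no other count by over 1.5 times. Deviations of same-numbered libraries had correlations of -0.097 to 0.157, and in 0 of the 11 comparisons did all 3 numbers pair, so the numbers were not taken to pair the samples. Depth per library is known only in relative terms, which gives no counting interval for a single value.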

Other observations

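Between 12 and 48 h in interferon, some genes of the lists of related repressors were also called, each counted in limma over all genes tested. Of all genes, limma called 24.6% higher and 11.3% lower for WT over this interval, against 27.7% and 14% for KO. In the HUSH list, MORC2 fell (log2 change -0.38 for WT and -0.25 for KO) and TASOR rose in WT by 0.21. The TASOR call was lost with median-of-ratios scaling (limma adjusted p of 0.12). ATF7IP2 and SETDB2, a relative of SETDB1, rose in WT by 0.36 and 0.35. Neither of these 2 calls passed with median-of-ratios scaling (limma adjusted p of 0.0503 and 0.0594).

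Among the H3K9 demethylases, KDM3A fell by 0.44 in WT and 0.34 in KO, while JMJD1C rose by 0.21 and 0.20, and KDM4A in KO by 0.27. The JMJD1C changes did not pass with median-of-ratios scaling (limma adjusted p of 0.126 and 0.166). HP1BP3 rose by 0.45 in WT and 0.39 in KO, and POGZ, a zinc finger protein that binds HP1, by 0.33 and 0.48. Only the KO change of POGZ passed with median-of-ratios scaling (limma adjusted p of 0.118 in WT and 0.0149 in KO). ZBTB33, the methyl-CpG binding protein Kaiso, rose by 0.27 and 0.20, and in KO it did not pass with median-of-ratios scaling (limma adjusted p of 0.0897).

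In the Polycomb list, limma called 5 genes higher and 1 lower for WT, and 4 higher and 2 lower for KO. With median-of-ratios scaling the calls were 2 and 2 for WT, and 3 and 3 for KO. CBX6 rose by 0.64 and 0.45, and EZH1 by 0.26 and 0.67. The EZH1 change in WT did not pass with median-of-ratios scaling (limma adjusted p of 0.081).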
